A study of Homo sapiens with 6 samples.

Results

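PABPC1 and PABPC4 encode cytoplasmic poly(A)-binding proteins, and GAPDH crosslink sites in MOLM-13 cells, a human acute myeloid leukaemia line, were annotated to both genes. The members are all rows of the 3 deposited site lists that carry the symbol PABPC1 or PABPC4, which gave 13 rows in 2 genes out of 1776 rows in all. PABPC1 held 9 of these rows and PABPC4 held 4. GAPDH, the glycolytic enzyme glyceraldehyde-3-phosphate dehydrogenase, was crosslinked to RNA in living cells and precipitated, and its RNA was sequenced (CLIP-seq). The cells had been kept for a day in medium with galactose, low glucose or normal glucose, with 2 samples in each of these groups. The labels give no other treatment and no genetic change, and all groups share the same line. The authors joined the 2 samples of a condition into 1 list of 337, 484 and 495 distinct peaks for galactose, low and normal glucose. A list holds positions and gene names without read numbers, strand or score. The sequencing depth is therefore unknown, no spread between replicates can be given, and every test compares lists and not conditions. The cell type could not be checked from the lists, since a peak is not a measure of expression; of 9 myeloid and MOLM-13 marker genes, 1 (CEBPA) had a peak.

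Cytoplasmic poly(A)-binding proteins coat the poly(A) tail of mRNAs and bind the initiation factor eIF4G at the other end, which joins the ends of the mRNA and favours translation, and they also take part in termination and deadenylation. PABPC1 is the major form, with RNA recognition motifs (RRMs), a linker and a C-terminal MLLE domain that binds partner proteins, and PABPC4, the inducible form, is a close relative described in activated T cells. The PABPC1 mRNA is known for an A-rich stretch in its 5'UTR to which its own protein binds, and for a terminal oligopyrimidine (TOP) start, a run of C and U from the first base that couples translation to nutrient signals. None of the 13 sites lay in a 3'UTR, which held 3%, 4.19% and 3.94% of all peaks of protein coding genes in galactose, low and normal glucose, so that 0 of 13 is near the share over all peaks.

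A GAPDH peak was annotated to PABPC4 at the very start of its gene in all 3 media. The peak was the same in galactose and low glucose (chromosome 1, 39576742 to 39576842, hg38), and in normal glucose it began 1 nt earlier in the genome (39576741 to 39576842). PABPC4 lies on the minus strand, and the canonical transcript, PABPC4-203, begins at 39576790. A peak around a lone crosslink site is 101 nt wide with the site in its middle. In galactose and low glucose alike that middle lay 2 nt before the first annotated base, and the middle of the 102 nt peak in normal glucose lay 1 nt before it. Of the 101 nt, 49 lay inside the transcript, in the 839 nt 5'UTR, and 52 lay before its start. The sites are thus called 5'UTR sites only by giving a middle beyond the gene the place at its end. Because strand is not given, RNA of PABPC4 cannot be told apart here from RNA of the other strand or of an upstream start.

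The 30 bases around this middle are shown because they hold the start that all 3 lists share, and the last 30 bases of the snoRNA gene SNORA55 because the other PABPC4 site covers it. In the former, capitals mark the annotated transcript from its first base, and in the latter the ACA box of this class of snoRNA. They are the minus strand of hg38 at chr1:39576778-39576807 and chr1:39567374-39567403.
PABPC4 start: gtggctccctcggccgcCTCTCTCCGCCCC
SNORA55 end: ggggcctgtctctacagctctgccACAttt

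From its first base the PABPC4 transcript ran through 8 pyrimidines, beginning with C. A start of this form, a C followed by C or T up to at least 8 in a row, was found at 1.70% of 22198 protein coding promoters of RefSeq (GRCh38.p14). The canonical PABPC1 transcript likewise began with C and held 12 pyrimidines in a row, which 0.55% of these promoters reached. The starts of both genes are those of GENCODE, and neither gene is among the RefSeq promoters counted. Annotated starts can differ between these sources. A match is a description of letters and not a sign of TOP regulation here. Middles within 50 nt of the start of a canonical transcript were found for 33 of 200 galactose peaks in protein coding genes (16.5%), for 23 of 310 in low glucose (7.42%) and for 18 of 254 in normal glucose (7.09%), counting peaks whose genes lie on 1 strand. PABPC4 was among the 72 of 560 protein coding genes with a peak in each list, 12.9% of those with any peak.

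The other PABPC4 site was found in low glucose alone and covered a snoRNA. It spanned 179 nt (chromosome 1, 39567368 to 39567546) and held all 135 nt of SNORA55, an H/ACA snoRNA in intron 7 of PABPC4, with 38 nt before and 6 nt after it. H/ACA snoRNAs guide pseudouridylation and are processed out of introns. The deposited list gave this peak to SNORA55, to PABPC4 and to PABPC4-AS1, a long non-coding RNA on the opposite strand. A shorter coding transcript, PABPC4-227, has its exon 1 here, so the middle counted as coding sequence when all transcripts were used and as intron in the canonical transcript. Because strand is not given, RNA of the snoRNA, of the pre-mRNA, of the short transcript and of the antisense RNA cannot be told apart. The PABPC4 peaks at the gene start and at SNORA55 are drawn for each list in the map of PABPC4.

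**Figure D1:**
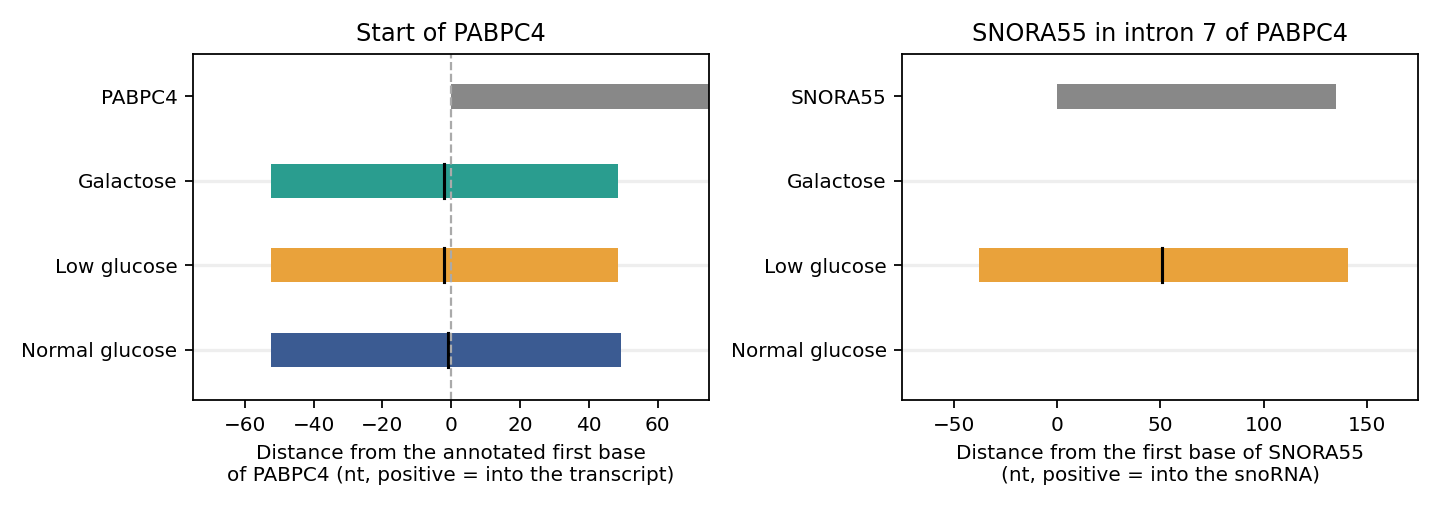
GAPDH peaks of PABPC4 in each list (coloured bars, black line at the middle), by distance in nt from the annotated first base of PABPC4 (left) and of SNORA55 (right), with the genes in grey. At the gene start the 3 bars nearly coincide and are centred 1 or 2 nt before the first base, while the 179 nt bar over SNORA55 is in low glucose alone.

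PABPC1 had no galactose site, 3 low glucose sites and 6 normal glucose sites. Its canonical transcript, PABPC1-201, lies on the minus strand of chromosome 8 (100702916 to 100722088) and has 15 exons and 2861 nt, of which 505 nt are 5'UTR, 1908 nt coding sequence for 636 codons and 448 nt 3'UTR. All 9 peaks were 101 nt wide. In low glucose the 3 sites lay in exon 1, between 70 and 557 nt from the first base. In normal glucose 2 of the 6 sites lay in exon 1, and 4 lay near the exons 8 to 12.

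Near the 5' end of PABPC1 the low and normal glucose lists met. The low glucose peak (100721969 to 100722069) had its middle at base 70 of the canonical mRNA. The normal glucose peak (100721988 to 100722088) had its middle at base 51 and ended on the first base of PABPC1-201. The gene itself is annotated farther upstream, to 100722809. They shared 82 nt, and their middles were 19 nt apart. Farther into the 5'UTR each list had a site of its own, in normal glucose at base 233 (100721806 to 100721906) and in low glucose at base 341 (100721698 to 100721798). These neighbours did not overlap, but only 7 nt lay between them. The last exon 1 site, in low glucose (100721482 to 100721582), lay wholly in coding sequence with its middle in codon 18, close after the start codon.

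The 4 downstream sites of PABPC1 were in normal glucose alone. Their middles lay at the border of exon 8 and intron 8 (100709408 to 100709508), in codon 436 of exon 9 (100709111 to 100709211), in codon 497 of exon 11 (100706713 to 100706813) and in codon 556 of exon 12 (100705560 to 100705660). The middle of the exon 8 peak was the first base of the intron, so it counted as intronic although 50 of its 101 nt were exonic. The other 3 peaks held 72 to 93 exonic bases. This stretch of the mRNA follows the sequence for the RRMs and encodes the linker and the beginning of the MLLE domain. The nearest low glucose peak was 11973 nt away in the genome. The map of PABPC1 shows these sites on the spliced mRNA.

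**Figure D2:**
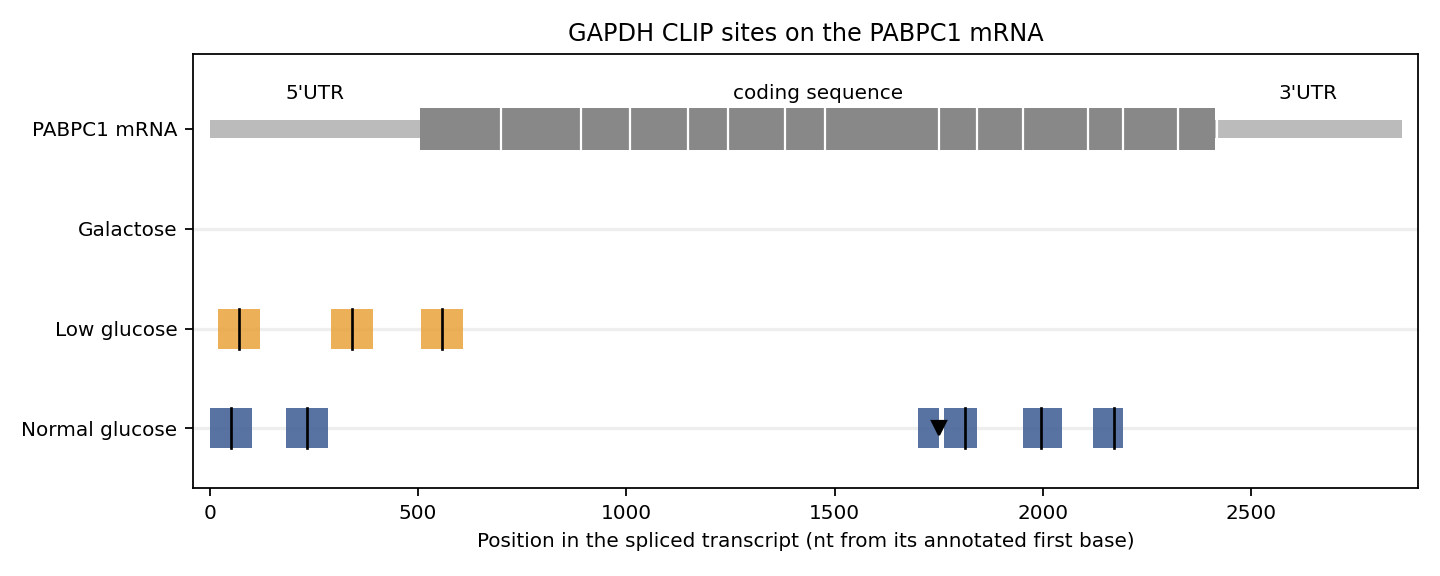
GAPDH peaks on the spliced PABPC1 mRNA, by position in nt from its first base, for each list (coloured bars show exonic bases of a peak, black lines the middle, and the triangle the middle that lies on the first base of intron 8). The 3 low glucose peaks sit in exon 1, the 6 normal glucose peaks fall into 2 in exon 1 and 4 near exons 8 to 12, and the galactose row is empty.

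Exon 1, which makes up 24.4% of the mRNA, thus held 3 of 3 low glucose sites and 2 of 6 normal glucose sites. This difference did not pass the test (Fisher's exact test, two-sided, p = 0.167 over the sites of the gene). With these totals 3 of 3 is already the most uneven outcome in this direction, so a preference of low glucose sites for exon 1 could not have passed. By region, 2 low glucose sites were in the 5'UTR and 1 in coding sequence, while of the normal glucose sites 2 were in the 5'UTR, 3 in coding sequence and 1 intronic. Over all peaks of protein coding genes on 1 strand, the 5'UTR held 64 of 310 in the low glucose list against 38 of 254 for normal glucose, and coding sequence held 99 (31.9%) against 95 (37.4%).

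In normal glucose PABPC1 had more peaks than any other protein coding gene, 6 against 5 for RPL13A. Without peaks that lie mostly in sequence found elsewhere in the genome, PABPC1 had 5 there. Of the 276 protein coding genes with a peak in that list, 223 (80.8%) had 1 peak. In low glucose 15 of 309 such genes had 3 peaks or more. As a share of the list, PABPC1 took 0.62% of the peaks in low glucose, with an exact 95% Clopper-Pearson interval of 0.128 to 1.80%. Its share was 1.21% in normal glucose, with an interval of 0.446 to 2.62%, while 0 of 337 galactose peaks have an upper limit of 1.09% by the same method, or 0.89% if 3 peaks of the list are taken as the limit that a count of 0 allows. For PABPC4 the galactose share was 0.297% (0.00751 to 1.64%), the low glucose share 0.413% (0.0501 to 1.48%) and the normal glucose share 0.202% (0.00511 to 1.12%). Intervals and the limit cover counting error over peaks only.

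None of these shares differed between lists past the threshold. For PABPC1 the comparison of galactose with normal glucose gave p = 0.0866 (Fisher's exact test, two-sided), with low glucose p = 0.273, and low against normal glucose gave p = 0.506 at an odds ratio of 0.508. The 3 tests of PABPC4 gave exact p-values of 1, 1 and 0.62. After Benjamini-Hochberg adjustment over all genes each of the 6 values was 1. No gene was called in any pair, which is 0% of 647 genes for galactose and low glucose, 0% of 718 for galactose and normal glucose and 0% of 845 for low and normal glucose. Unadjusted Fisher p-values under 0.05 numbered 0, 0 and 1, the last for the long non-coding RNA gene ENSG00000280441, which had 10 low glucose and 22 normal glucose peaks and was chosen after its values were seen. A gene without a galactose peak would have needed 19 peaks in either glucose list to be called, so that a gap of the size seen for PABPC1 was not detectable with lists of this length.

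Nearest to PABPC1 in their peak numbers over the 3 lists were the protein coding genes EEF2, RPL13A, ENSG00000285043, ALDOA and, tied in the last place, RPLP2 and RACK1. EEF2, which drives translocation in elongation, had 0, 5 and 4 peaks in galactose, low and normal glucose (Euclidean distance 2.83 over the 3 numbers), and RPL13A, of the large ribosomal subunit, had 2, 5 and 5 (distance 3). ALDOA, an aldolase of glycolysis, and ENSG00000285043, annotated to the same peaks, had 0, 2 and 3 (distance 3.16), and RPLP2 of the ribosomal stalk had 1, 4 and 3 (distance 3.32). RACK1, with 1, 2 and 3, lay at the same distance. With 1, 2 and 1 peaks PABPC4 had the same numbers as 8 other protein coding genes, of which the naming rule took ANKRD30BL, MT2A, RPL10, RPL5 and RPS18. The plot of peaks per gene sets these numbers side by side.

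**Figure D3:**
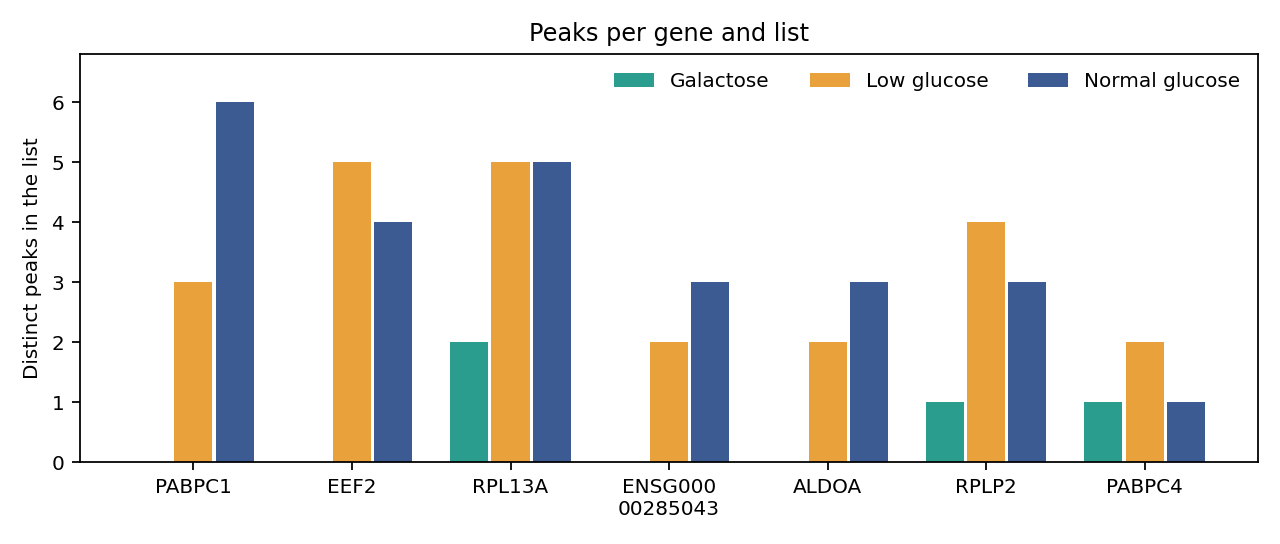
Distinct GAPDH peaks per gene in the galactose, low glucose and normal glucose lists for PABPC1, 5 of the 6 protein coding genes nearest to it in these numbers, and PABPC4 (RACK1, tied with RPLP2, is not drawn). PABPC1 reaches 6 peaks in the normal glucose list and has no galactose bar, and neither have EEF2, ALDOA and ENSG00000285043.

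The base content of the sites differed widely within PABPC1. The low glucose peak at base 70 held 42.6% A and 34.7% G and C, read on the strand of the gene, and more A than 98.4% of the low glucose peaks on 1 strand. Its normal glucose partner at base 51 held 31.7% A, more than 91.9% of the peaks of its list. Both contain a run of 8 A. AAAAAA, searched on the gene strand only, was found in these 2 of the 9 PABPC1 sites, which share this stretch, and in 6.34% of low glucose and 5.67% of normal glucose peaks. The remaining exon 1 sites held 11.9 to 25.7% A and 64.4 to 68.3% G and C, and the 4 downstream sites 22.8 to 24.8% A and 45.5 to 50.5% G and C. At the PABPC4 start the peak held 7.92% A and 75.2% G and C in galactose and low glucose, more G and C than 88.2% and 88.0% of the peaks there. The peak over SNORA55 held 19.6% A and 52.5% G and C. The sites nearest the starts of the 2 canonical transcripts thus stood near opposite ends of the range of A content. However, 52 nt of the PABPC4 peak lay before the annotated first base, while both PABPC1 peaks lay wholly inside the transcript. The spread is visible in the plot of base content.

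**Figure D4:**
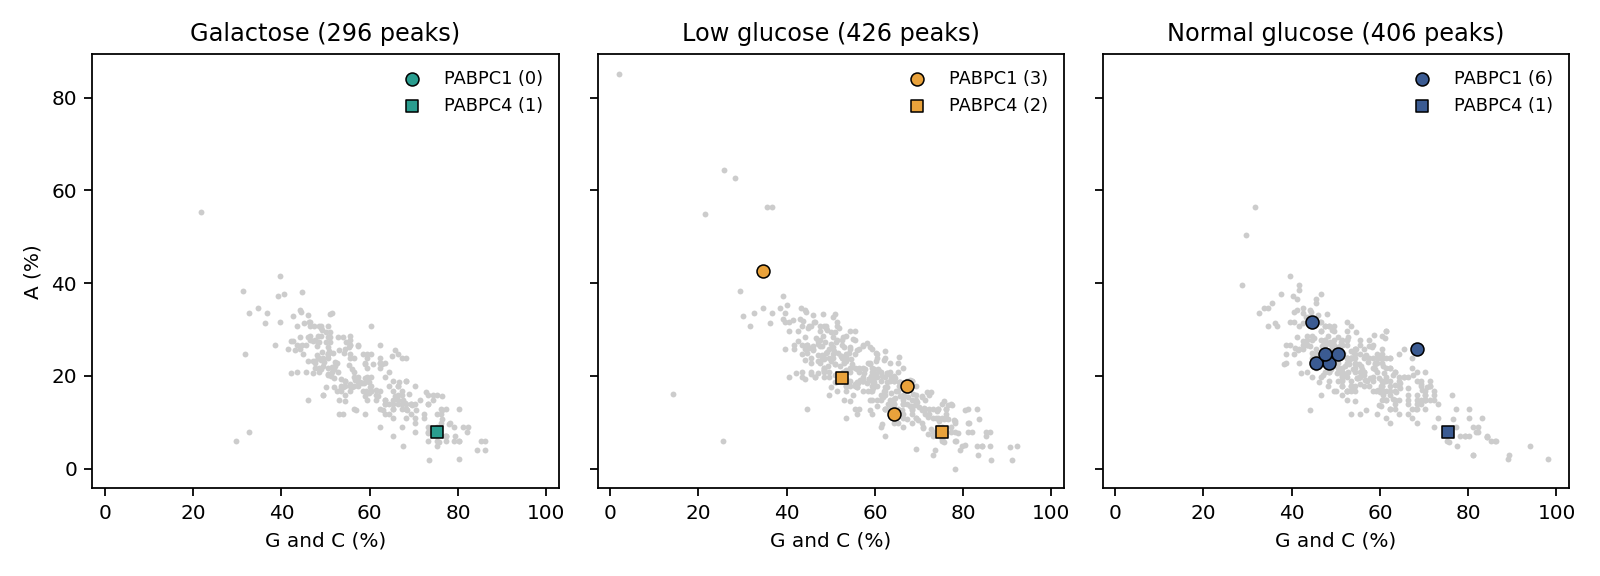
A content (%) against G and C content (%) of each peak, read on the gene strand, in the 3 lists (grey: all peaks whose genes lie on 1 strand; circles: PABPC1; squares: PABPC4). The low glucose PABPC1 site with 42.6% A lies far from the PABPC4 start site with 75.2% G and C.

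RNase T1, which cuts after G, was used to trim the RNA. A G stood directly before the middle at 5 of the 6 normal glucose sites of PABPC1 and at 0 of the 3 low glucose sites. Over all 101 nt peaks on 1 strand this base was G in 62.8% of 266 normal glucose peaks, 26.1% of 203 low glucose peaks and 24.3% of 169 galactose peaks. The exception among the normal glucose sites was that in exon 12, with U. At the PABPC4 start a C preceded the middle in galactose and low glucose. In normal glucose it was a G, but that peak is 102 nt wide and its middle need not be a lone crosslink site. The part of this difference between the lists in the number of PABPC1 sites was not tested.

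PABPC1 has processed copies elsewhere in the genome. Of its 9 sites, 7 contained 30-mers that recur elsewhere in hg38 and 2 had more than 50% of them recurring. These were the codon 18 site of low glucose, with 45 of 72 30-mers recurring (42 in the pseudogene PABPC1P10 and 13 in PABPC3, an intronless relative), and the exon 9 site of normal glucose, with 49 of 72 (31 in PABPC1P4 and 20 in PABPC3). In the remaining 5 sites 10 to 21 of 72 recurred. The downstream peaks include 30-mers that reach into introns, which processed copies lack. For these peaks a share of 72 can understate how much of the exonic part recurs. The exon 8 peak had 50 exonic bases and 21 recurring 30-mers, with 21 found in PABPC1P4. Recurring 30-mers of the 5'UTR sites at bases 233 and 341 lay outside any annotated PABPC gene. For base 341, 10 were on chromosome 13, which holds PABPC3. For base 233, 10 were on chromosome 3, which holds PABPC1P10. Whether they flank these copies was not tested. The overlapping sites at bases 51 and 70 and all 4 PABPC4 sites had no recurring 30-mers. No peak was annotated to PABPC3 or to any of the 13 GENCODE pseudogenes named PABPC. How the authors treated reads that map more than once is not given in the sources used here, and its part in these sites was not tested.

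Among 7 genes of poly(A)-binding proteins, 1, 2 and 3 had a peak in galactose, low and normal glucose. PABPC1 and PABPC4 are in this group and were chosen with earlier results of these data known. Their peaks therefore say nothing about the family as a whole. The only other gene of the group with a peak was PABPN1, the nuclear form that controls tail length. Its coding site in normal glucose (chromosome 14, 23321492 to 23321592) was also annotated to BCL2L2-PABPN1. Of 24 partners in initiation and termination, 4, 3 and 4 had a peak. EIF4G1, the scaffold that binds PABPC1, had an intronic peak over SNORD66 in galactose, and all 6 peaks of the helicase EIF4A1 (3, 1 and 2) lay in introns over SNORA48, SNORA67 or SNORD10, as the PABPC4 peak lay over SNORA55. YBX1, which packages mRNA, had 4 sites in normal glucose alone, all in recurrent sequence. Other partners with a peak included EIF4G2 and EIF4A2 in normal glucose, ATXN2L in low glucose and IGF2BP1 in galactose, with 1 peak each.

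Of 21 genes of deadenylation, which shortens the tails that PABPC1 protects, 0 had a peak in any list. Over all 20046 protein coding genes of GENCODE that share was 2.79%, so 0 of 21 is near it. Of 17 other mRNAs known as TOP mRNAs without ribosomal proteins, 1, 3 and 3 had a peak. These were RACK1, a ribosomal scaffold (1, 2 and 3 peaks), EEF2, the filament protein VIM (3 in low glucose) and EIF4A2. The galactose peak of RACK1 and 1 of its normal glucose peaks lay over SNORD96A. Of all 20046 protein coding genes of GENCODE, 1.10%, 1.54% and 1.38% had a peak in galactose, low and normal glucose. The gene groups were not tested against these shares.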

How the data were processed

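GAPDH CLIP-seq of MOLM-13 cells gave 6 samples, 2 for each of 3 media. The labels' extract protocol describes total RNA libraries and not CLIP, so the CLIP steps, RNase T1 and the site calling are taken from the study's methods. Reads were trimmed with cutadapt and mapped to hg38 with STAR per the labels (versions not given in the sources used here). Crosslink sites were called with PureCLIP, close sites merged, lone sites extended, and the samples of a condition joined. The deposited lists give chromosome, start, end, Ensembl identifier and symbol, and were read as 1-based with both ends included.

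Genes, transcripts and strand came from GENCODE release 44 on the same build. The place of a peak is that of its middle, taken over all coding transcripts, where coding sequence went first, then the 5'UTR, the 3'UTR and introns. Peaks overlapping by at least 1 nt were called shared. A 30-mer was recurrent if found more than once in hg38 on either strand. Shares of distinct peaks were compared for every gene with Fisher's exact test (SciPy 1.17.1), two-sided, with Benjamini-Hochberg adjustment over the genes of a pair and a threshold of 0.05, after a test on simulated lists. Named genes were the members, genes on their peaks, members of the gene lists with a peak, and the 5 genes nearest in peak numbers, ties going to the gene with more peaks. The values of 1 gene of the lists are not reported here. Members and lists were chosen with earlier results of these data known. Depth per sample is unknown, and the alternatives tried are given in the closing section.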

Additional observations from a re-analysis of the deposited data

How the results depend on the processing

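Of 48 alternative values, 41 stayed on the same side of the threshold or within 1.5 times the main number, and 7 moved. With peaks within 50 nt taken as shared, PABPC1 had 2 sites in common between lists in place of 1, since the neighbours at bases 233 and 341 were then joined. In the canonical transcript the PABPC4 sites numbered 0 in the 5'UTR, 0 in coding sequence and 1 in an intron, against 3, 1 and 0 with all transcripts. The region with most bases gave 0, 0 and 1 as well. The start sites then lay outside the gene, by construction. A start read as 0-based changed no region of either gene. For PABPC1 in galactose against normal glucose, the unadjusted p of Fisher's exact test ranged from 0.0438 (protein coding peaks as the total) to 0.0867 over 4 alternatives, with an adjusted p of 1 in each. No gene was called under any of them. No paired analysis was possible because each deposited list merges both samples of its medium, so that no replicate could be left out either. Depth is not given for any list, and its part in the lack of PABPC1 sites in galactose was not tested.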
